A study of Triticum aestivum with 39 samples.

Results

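The endosperm of wheat (cv. Chinese Spring) at 22 days after pollination (DAP) carried many transcripts that were at or near background in the other organs sampled. The 150 most endosperm-specific probesets without a gene name on the Affymetrix Wheat GeneChip are described here. They were taken from 39454 candidates, which are the probesets with IDs starting Ta. or TaAffx. that remain of the 61115 on the array once the suffixes _s_at, _x_at and _a_at, the .A1 mark and 110 probesets paired with a named gene are left out. A gene was counted as named where it had a symbol or a synonym other than a locus number. The study describes many of the array's probesets as lacking clear evidence of lying near the poly-A end of the gene. It found their signal less reliable and often low. The rule did not leave these out, and their share among members and candidates was not examined. For each candidate the signal was converted to log2(signal + 16), called the level below, and averaged over the arrays of each tissue. The members are the 150 with the largest difference, here always the mean level in the 22 DAP endosperm minus the highest mean level among the other 12 tissues. These values chose the members, so the endosperm levels and differences are a description and carry no test.

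The series holds 39 arrays, 3 biological replicates of each of 13 tissues of untreated wild-type plants of the same genotype. Coleoptile, root and embryo came from germinating seed, and root, crown and leaf from seedlings of 10 cm. The immature inflorescence was taken at 2 to 3 cm, and floral bracts, pistil and anthers at 2 days before anthesis. The young caryopsis came from 3 to 5 DAP, and embryo and endosperm from 22 DAP. Each sample of flower or grain organs pooled 10 spikes, so a value is a mean over plants and over all the cells of the excised organ. In such samples fewer cells of a type and less RNA per cell cannot be told apart. The 22 DAP endosperm is the only endosperm sample, and the embryo of germinating seed is named here as in the labels. The study's text names no other embryo sample than that of 22 DAP. Among its 13 tissues it lists a mesocotyl, which like coleoptile and radicle came from embryos of 2 days. By elimination the sample labelled embryo of germinating seed corresponds to that mesocotyl.

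The endosperm is the storage tissue of the cereal grain. After fertilization it first divides without cell walls, then forms cells, and during filling its starchy part accumulates starch and the prolamin storage proteins of gluten, the gliadins and glutenins. Proteins that inhibit amylases and proteases and small antimicrobial proteins such as thionins are also laid down there. The outermost layer, the aleurone, stays alive until germination and shares many transcripts with the embryo.

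The markers of the labelled tissue were present. Of 5 probesets for endosperm markers, 4 were highest in the endosperm, with means from 14.95 to 16.30. They stand for GAG56D, a gamma-gliadin, gli-2, an alpha-gliadin, and ALP, an avenin-like protein. The exception, the ALP probeset Ta.27777.1.S1_at, had 12.54 in the endosperm and 13.30 in the 22 DAP embryo. Markers of other organs were measured in the same RNA. All 5 probesets for Em, WGA2, rab and PER1, genes of embryo maturation, lay above background in the endosperm, from 9.54 to 14.31, and their summed signal was 25006 to 28389 on its 3 arrays against 114780 to 131520 in the 22 DAP embryo. PER1 held most of the endosperm sum, with means of 14.31 in the endosperm and 14.73 in that embryo. The other 4 had 9.54 to 11.15 against 13.79 to 15.10, and without PER1 the sums were 5160 to 7982 and 89901 to 102450. Of 5 probesets for the photosynthesis genes OEE2, petC, PRK and Trx-M, 4 were above background, with a summed signal of 7409 to 8165 against 27227 to 36726 in the caryopsis. The anther gene raftin1a was not above background, at 5.95. The part of these other cells in the members' levels was not tested.

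Background was taken from the 64 reporter probesets of the array, whose 95th percentile was 6.45 in the endosperm and 6.0 to 7.06 in the other 12 tissues. The members' endosperm means ran from 8.86 to 16.42, with a median of 13.28, and every member was above that percentile. Their next highest tissue had a mean of 4.58 to 11.91, with a median of 6.35. The difference ran from 10.96 down to 3.81, with a median of 6.11. For all 150 members the lowest endosperm array was above each of the 36 other arrays, and the smallest gap between them was 2.47. Choosing the largest differences favours such a separation, so it describes the choice and is no support for it. Replicates of the endosperm were close, with a median SD of 0.12 over members against 0.33 to 0.45 in the other tissues, where most levels lay near background. The limit of the set fell inside a dense series of values. TaAffx.56982.2.S1_at and Ta.25093.1.S1_at, with differences of 3.84 and 3.81, were just inside, and TaAffx.79383.1.S1_at and Ta.9971.2.S1_at, both at 3.76, were just outside.

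**Figure D1:**
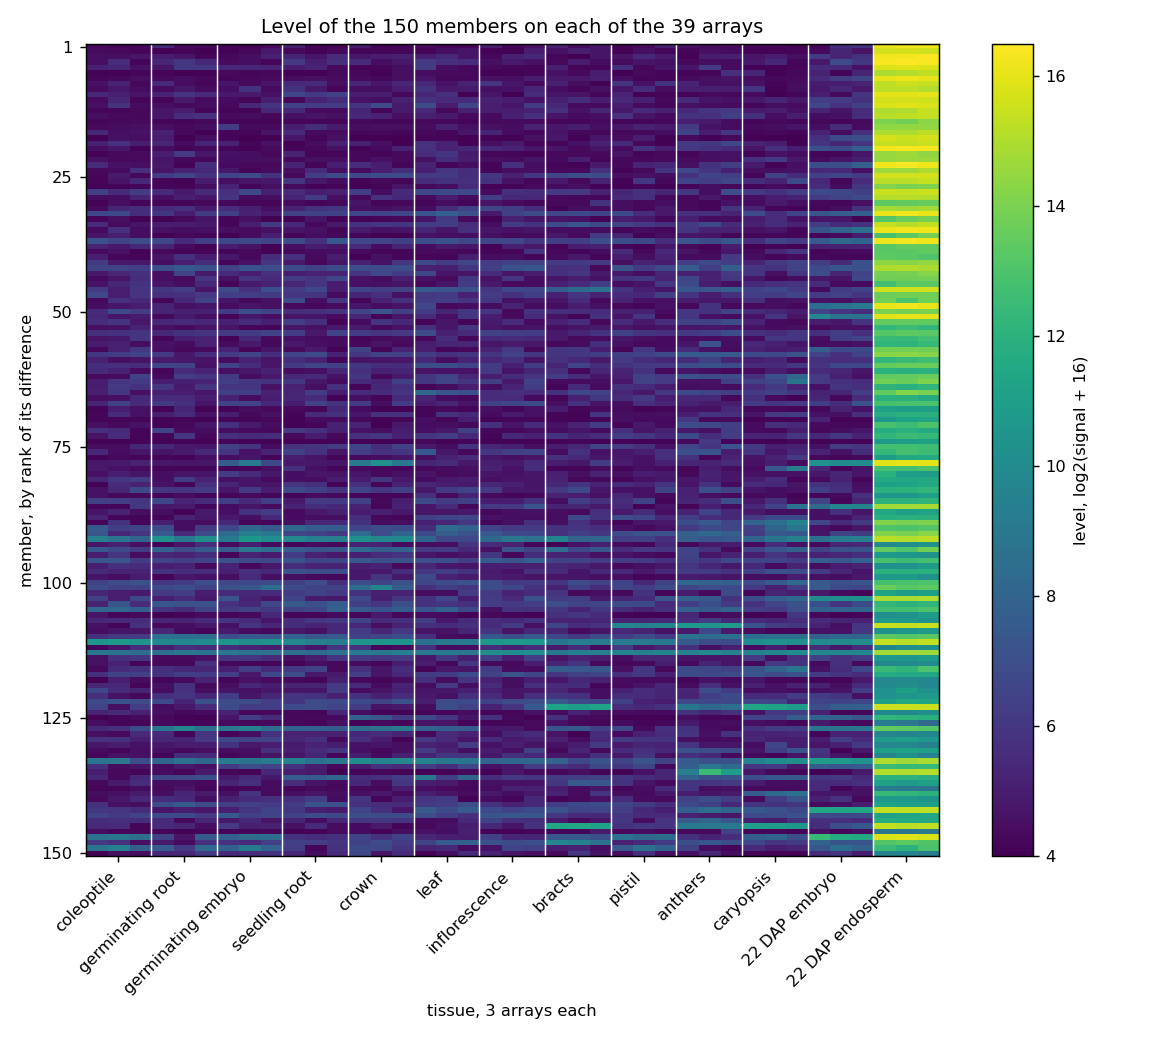
Level, log2(signal + 16), of the 150 members (rows, by rank of the difference) on the 39 arrays (columns, 3 per tissue, separated by white lines). The 3 endosperm arrays are bright for every member, and of the 27 members above background in 6 or more other tissues, 23 rank after 75.

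The 10 members with the largest difference reached between 15.13 and 16.42 in the endosperm and no more than 6.38 as a mean in any other tissue. Ta.6175.1.S1_at had the largest difference, 10.96, with 16.10, 16.21 and 16.19 on the endosperm arrays. In the 22 DAP embryo, its next highest tissue, it had 4.20, 5.61 and 5.80. The embryo arrays thus spread over more than the endosperm arrays did, at a level where background and signal are not separated. TaAffx.4219.1.S1_at had 15.64, 15.70 and 15.62, and its highest level on any of the 36 other arrays was 5.28. Ta.23896.1.S1_at had 16.23, 16.26 and 16.42 in the endosperm against 5.74 ± 0.45 (SD, n = 3) in the 22 DAP embryo. Both were therefore near the reporters in all of the other tissues.

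Ta.2448.1.S1_at, paired with LOC542894, had the highest endosperm level of all members, 16.38, 16.49 and 16.39, which are signals of 85188, 91837 and 85946. In the 22 DAP embryo it had 4.87, 6.85 and 5.97, and its difference was 10.52. TaAffx.52381.1.S1_at, Ta.25057.1.S1_at and Ta.131.1.S1_at followed with differences of 10.26, 10.24 and 10.02. Ta.1304.1.S1_at, Ta.14111.1.S1_at and Ta.28312.1.S1_at completed the 10, with 9.99, 9.98 and 9.63. The next highest tissue was the 22 DAP embryo for 5 of these 10 and a vegetative or floral organ for the others, namely bracts, germinating root, pistil, leaf and seedling root.

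**Figure D2:**
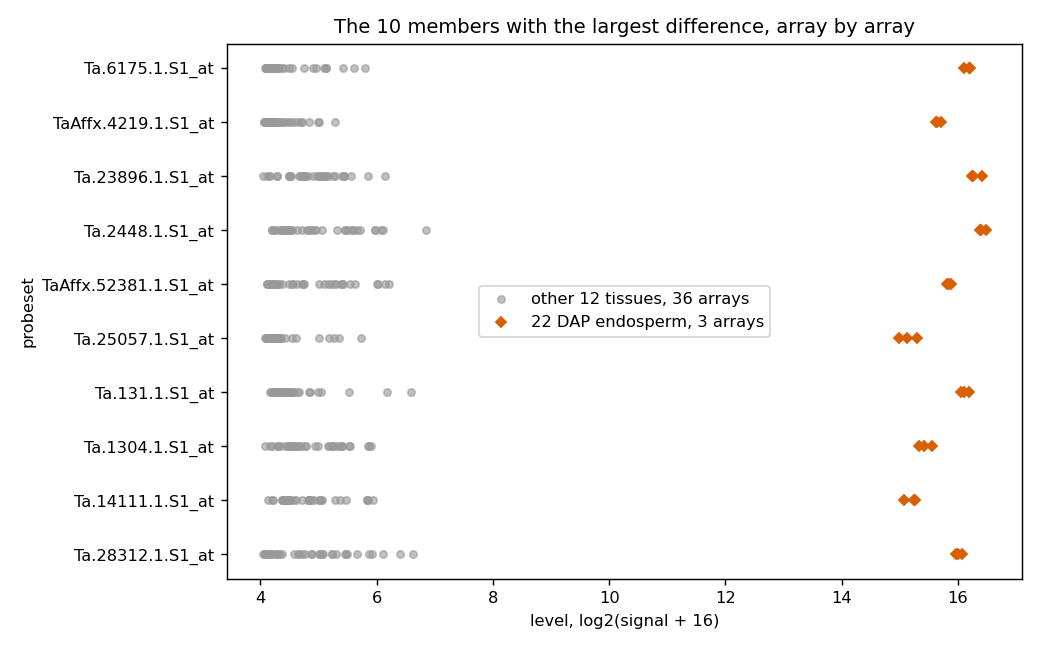
Level, log2(signal + 16), of the 10 members with the largest difference. Grey circles are the 36 arrays of the other 12 tissues and orange diamonds are the 3 endosperm arrays. No grey circle lies above 6.85, and no diamond lies below 14.98.

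Members of high endosperm level were frequent. Their endosperm mean was at least 15 for 39 members and at least 16 for 11. Besides Ta.2448.1.S1_at, the highest were Ta.115.1.S1_at, with 16.29, 16.40 and 16.32, and Ta.23896.1.S1_at. The lowest were TaAffx.52282.1.S1_at (9.26, 8.97 and 8.35), Ta.21935.1.S1_at (8.90, 8.88 and 8.95) and Ta.9999.2.S1_at (9.15, 8.99 and 8.83). Signals of different probesets depend on their probes as well as on the transcript, so these levels do not rank the transcripts by abundance. The 150 members, 0.245% of the array's probesets, held 4.90 to 5.02% of the summed signal on the 3 endosperm arrays and 0.0124 to 0.0435% on the 36 others. The first 10 members alone held 0.967 to 1.01% on the endosperm arrays.

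The IDs of the members were not spread evenly over both classes of the array's names. IDs starting TaAffx. made up 45 of the 150 members (30%) and 61.2% of the candidates. Such an ID was held by 8, 23 and 14 of the first 50 members, the next 50 and the last 50. The median endosperm level was 12 for the TaAffx. members and 13.86 for the 105 members with Ta. IDs, and the median difference was 5.72 and 6.21.

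A gene, given by a locus number, was paired with 11 members, and 139 had none. LOC543265 (Ta.131.1.S1_at) had 16.05, 16.19 and 16.11 in the endosperm, and 5.53, 6.17 and 6.59 in the 22 DAP embryo. LOC543308 (Ta.840.1.S1_at) had 15.68, 15.53 and 15.70, against 6.47 ± 0.65 in that embryo. LOC542926 (Ta.28705.1.S1_at), LOC543483 (Ta.28466.1.S1_at) and LOC542955 (Ta.10140.1.S1_at) had differences of 9.11, 8.75 and 8.60. These genes, with LOC542894, had means of no more than 6.47 in every tissue other than the endosperm.

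The other members with a locus had more signal elsewhere or less in the endosperm. LOC542918 (Ta.9402.1.S1_at) had 15.61, 15.61 and 15.57 in the endosperm and 7.59, 8.26 and 8.66 in floral bracts. LOC732704 (Ta.9233.1.S1_at) had 15.47, 15.33 and 15.47, and reached 10.73, 10.51 and 10.86 in anthers. LOC542830 (Ta.231.1.S1_at) had 13.48, 13.34 and 13.16, and 8.82, 9.72 and 8.63 in the germinating root. All of these ranges were separate from that of the endosperm, by 4.48 for LOC732704 and by 3.44 for LOC542830. LOC543129 (Ta.23689.1.S1_at) had the lowest endosperm level of the 11, 11.79, 11.98 and 11.95, and LOC100037533 (Ta.8559.2.S1_at) had 12.37, 12.24 and 12.02.

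The place of these loci was read from the gene order of the RefSeq annotation of the Chinese Spring assembly IWGSC CS RefSeq v2.1. LOC542894 is 1 place from LOC542895, whose synonyms include the avenin-like gene ALPb-7D, and 2 places from avnla, an avenin-like gene. The probeset for avnla, Ta.905.2.S1_at, had 15.50 in the endosperm and 8.57 in the next tissue, the germinating root. LOC543265 is 14 places from LOC100125697, which has the low molecular weight glutenin synonym Glu-D3, and 24 places from GAG56D. Of the other measured neighbours, LOC543484, 13 places from LOC542955, was highest in the endosperm on all of its 4 probesets, by at most 2.52, and 4 other genes were not highest there. LOC542994, 14 places from LOC542894, was lower there than in the germinating root by a difference of -3.32. LOC543056, 13 places from LOC543308, had 10.06 against 13.28 in anthers. The neighbours of LOC732704 and LOC542830 had differences of -1.61 and -1.91. Being neighbours does not show that genes share a function or a control.

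The IDs give each probeset the number of a design cluster, and the members came from 144 clusters, 6 of them with 2 members each. The sequences were not examined. Both members of cluster Ta.23141, Ta.23141.2.S1_at and Ta.23141.1.S1_at, were high in the endosperm (16.20 ± 0.06 and 16.12 ± 0.08) and next in the 22 DAP embryo (7.92 ± 0.70 and 8.76 ± 0.26). Those of cluster Ta.2446, Ta.2446.2.S1_at and Ta.2446.1.S1_at, were alike in the same way, with 16.19 and 16.23 in the endosperm and 7.60 and 7.98 in that embryo. Each pair shares a design cluster, so its members are not taken as independent measurements.

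In other clusters both members were specific but far apart in level. Ta.14111.1.S1_at had 15.19 ± 0.11 in the endosperm and Ta.14111.2.S1_at 10.57 ± 0.48. Ta.9999.1.S1_at had 15.49 ± 0.07 and Ta.9999.2.S1_at 8.99 ± 0.16. The members of Ta.13257 differed in their next tissue, which was anthers (7.95) for Ta.13257.1.S1_at and the caryopsis (8.00) for Ta.13257.2.S1_at. TaAffx.12746.2.S1_at and TaAffx.12746.1.S1_at were both low, with 10.71 and 9.83 in the endosperm.

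Outside the endosperm, 76 of the 150 members were at or under the reporters' 95th percentile in all 12 tissues. A further 22 were above it in 1 tissue, 25 in 2 to 5, 23 in 6 to 11, and 4 in all 12. Those 4, Ta.24635.1.S1_at, Ta.10900.1.S1_at, Ta.9329.1.S1_at and Ta.10996.1.S1_at, were chosen for mention after their values were seen. They had 14.73 to 15.32 in the endosperm and 9.97 to 10.71 in their next tissue. Their lowest mean among the 12 tissues was 6.10, 7.11, 8.60 and 6.74. Ta.20518.1.S1_at had the highest level outside the endosperm, 12.49, 11.69 and 11.56 in the 22 DAP embryo, against 15.81, 15.87 and 15.73 in the endosperm. The groups are separate, by 3.24 between their nearest arrays. Ta.20518.2.S1_x_at and Ta.20518.3.S1_a_at, of the same design cluster but left out by suffix, went the other way. They had 14.9 and 14.5 in the endosperm and 15.3 and 15.2 in the 22 DAP embryo.

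The next highest tissue was anthers for 36 members, the 22 DAP embryo for 30, the caryopsis for 17, the leaf for 15, bracts for 11 and the seedling root for 10. It was the crown for 8, coleoptile, germinating root and inflorescence for 5 each, and pistil and germinating embryo for 4 each. For many members this order has no meaning, since it compares levels near background. The anther arrays had a higher background, with a reporter median of 5.02 and a 95th percentile of 7.06, and only 21 members (14.0%) exceeded that percentile there. In the 22 DAP embryo 48 members (32.0%) were above background, and in the caryopsis 35 (23.3%), against 44.4% and 38.8% of all candidates. The share was lower in every other tissue, from 10.0% in the inflorescence to 20.7% in the crown. These shares follow in part from the rule, which kept out probesets that were high elsewhere.

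**Figure D3:**
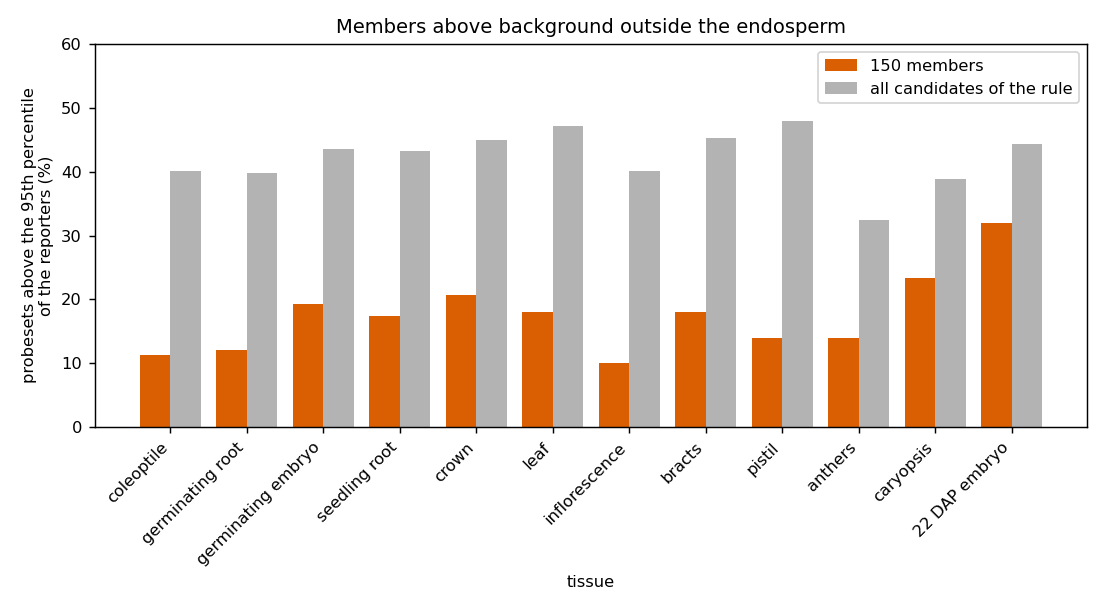
Percent of probesets whose tissue mean exceeds the 95th percentile of the reporters in that tissue, for the members (orange) and for all candidates (grey), in the 12 tissues other than the endosperm. The members reach their highest shares in the 22 DAP embryo (32.0%) and the caryopsis (23.3%), and the grey bars lie above the orange bars in each tissue.

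The rule needs a next tissue at least 3.81 below the endosperm, so members of low endosperm level had little room above background elsewhere, and the following counts are a description. Of the 39 members with an endosperm mean of 15 or more, the next highest tissue was the 22 DAP embryo for 19, anthers for 7 and the caryopsis for 1, and 20 (51.3%) were above background in the embryo. Between 12 and 14 the embryo was next for 4 of 47 members, and between 14 and 15 for 5 of 17. In the caryopsis 9 of the 39 members with the highest endosperm levels (23.1%) were above background, and in the germinating embryo 8. The endosperm marker GAG56D had 7.46 in the 22 DAP embryo and gli-2 had 7.07, and the part of endosperm RNA in the embryo samples was not tested.

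**Figure D4:**
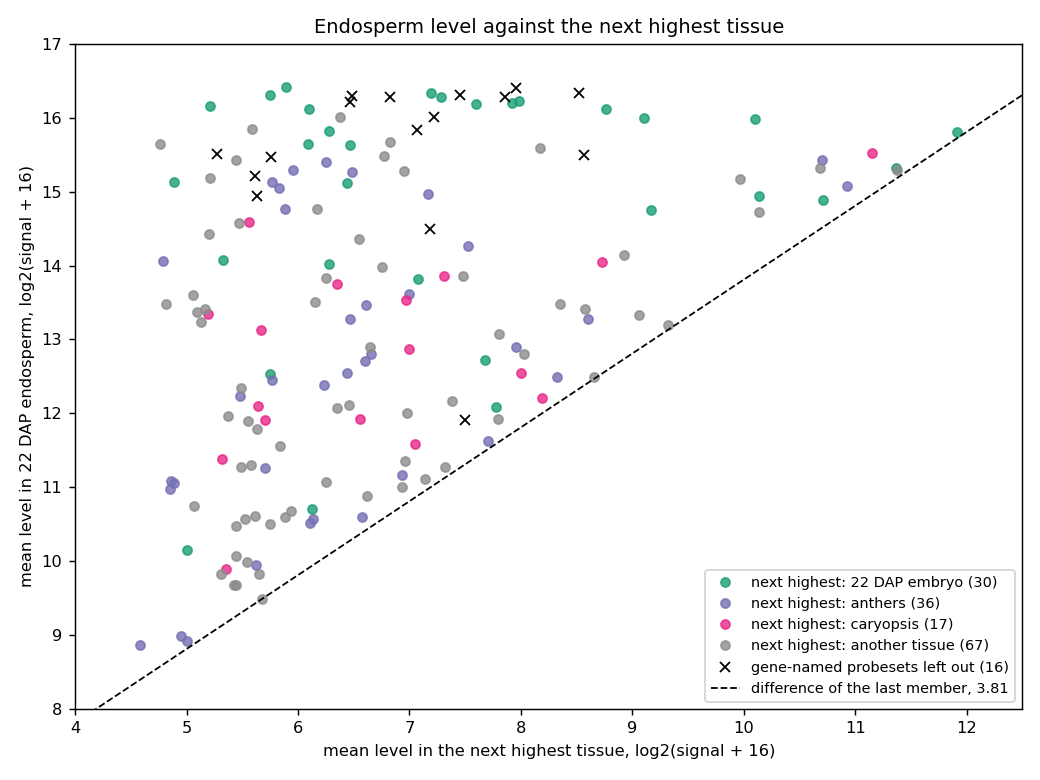
Mean level, log2(signal + 16), in the 22 DAP endosperm (vertical) against the next highest tissue (horizontal) for the 150 members, coloured by that tissue. Crosses are the 16 gene-named probesets that the rule leaves out but whose difference exceeds that of the last member (dashed line, 3.81). The 22 DAP embryo is next highest for 19 of the 39 members with an endosperm mean of 15 or more.

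The rule used the other 12 tissues only through the highest of their means. That highest mean also bounds how far the 12 can differ, so a test of variation among them is not independent of the rule. In the limma F test 91 of the 150 members (60.7%) varied among the 12 tissues at an adjusted p under 0.05, beside 66.2% of all 39564 retained probesets. The share is near that of the array as a whole and is not a result about the members. The highest and the lowest of the 12 means lay a median of 2.28 apart in the 91 members and 1.03 in the 59 others. Over all members this range ran from 0.37 to 6.88.

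The caryopsis at 3 to 5 DAP, which holds the young endosperm inside the maternal layers of the grain, was compared with the immature inflorescence, which holds none. Called means an adjusted p from limma under 0.05 and a difference of at least 1. In the caryopsis 19 members (12.7%) were called higher, against a percent called of 5.63 over all retained probesets, and 2 (1.33%) lower, against 9.71. The rule kept out probesets high elsewhere, and 10.0% of members were above background in the inflorescence, against 40.1% of candidates. The shares called in this and each later comparison thus follow in part from the rule. The median difference over members was 0.01, beside -0.17 over all retained probesets. The other 129 members were not called, most of them with both means near background.

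The members called higher in the caryopsis with the largest differences were not at their lowest in other organs. Ta.27098.1.S1_at had 11.01, 10.86 and 10.60 in the caryopsis and 5.44, 4.69 and 5.84 in the inflorescence, a difference of 5.50 ± 0.38 (SE, adjusted p = 1.34e-12). It had 11.36, 11.49 and 11.27 in floral bracts, its next highest tissue, and 15.38, 15.21 and 15.28 in the endosperm. Ta.24117.1.S1_at had 11.34, 11.20 and 10.91 against 5.17, 5.86 and 7.45, a difference of 4.99 ± 0.53 (adjusted p = 9.65e-09). It too was high in bracts, with 11.23, 10.99 and 11.20. Both thus had like levels in the caryopsis and in the bracts that enclose the floret.

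Ta.6084.1.S1_at had 7.98, 8.63 and 9.58 in the caryopsis and 4.21, 4.51 and 5.68 in the inflorescence, and differed by 3.93 ± 0.48 (adjusted p = 1.75e-07). In bracts it stayed at 4.47, 5.78 and 4.87, and the caryopsis was its highest organ after the endosperm. LOC100037533 (Ta.8559.2.S1_at) had 7.59, 8.32 and 8.65 against 4.86, 4.45 and 4.84, and differed by 3.47 ± 0.32 (adjusted p = 9.14e-10). Of the 19 members called higher, 3 had both means at or under the reporters' 95th percentile of their tissue. Of the 2 called lower, Ta.10140.1.S1_at (LOC542955) had 5.14, 4.16 and 4.11 in the caryopsis and 6.61, 6.30 and 5.60 in the inflorescence, and both means, 4.47 and 6.17, lay under the reporters' 95th percentile of their tissue, 6.32 and 6.48. Ta.10083.1.S1_at had 6.55, 6.50 and 6.19 against 7.65, 7.22 and 7.84. Neither call held throughout: without replicate 2 of every tissue the adjusted p of Ta.10140.1.S1_at was 0.191, and without replicate 3 the difference of Ta.10083.1.S1_at was -0.91. Without replicate 3, 12 members in place of 19 were called higher.

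The 22 DAP embryo was compared with the same caryopsis samples, so both comparisons share them. In the embryo 31 members (20.7%) were called higher, beside 10.3 percent called over all retained probesets, and 17 (11.3%) lower, beside 8.11. The median difference was 0.30 over members and 0.10 over all retained probesets. Both means were at or under the reporters' percentile for 7 of the 31 and 3 of the 17.

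The 3 members with the largest positive differences had endosperm means of 15.80 to 16.12. Ta.9227.1.S1_at had 10.32, 9.92 and 10.06 in the 22 DAP embryo against 4.61, 4.95 and 4.38 in the caryopsis, a difference of 5.45 ± 0.40 (adjusted p = 1.74e-12), and 15.92, 16.06 and 15.98 in the endosperm. Ta.23141.1.S1_at had 8.53, 8.71 and 9.05 against 4.34, 4.45 and 4.28, a difference of 4.40 ± 0.39 (adjusted p = 1.79e-10). Ta.20518.1.S1_at, whose embryo arrays are given above, had 7.70, 8.02 and 6.98 in the caryopsis and differed by 4.35 ± 0.42 (adjusted p = 8.73e-10). In each case all embryo arrays lay above all caryopsis arrays.

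The largest differences in the other direction belonged to members already named for the caryopsis. Ta.27098.1.S1_at had 5.66, 6.98 and 7.46 in the embryo, lower than in the caryopsis by a difference of -4.12 ± 0.38 (adjusted p = 3.03e-10). Ta.24117.1.S1_at had 7.01, 7.70 and 7.81 there, with a difference of -3.64 ± 0.53 (adjusted p = 1.68e-06). Ta.8559.2.S1_at had 4.77, 4.71 and 4.55, with a difference of -3.51 ± 0.32 (adjusted p = 3.40e-10). Ta.8559.2.S1_at was thus near background in the embryo, whereas the other members named here remained above it on most arrays. Without replicate 2 of every tissue 8 members in place of 17 were called lower, and without replicate 3, 11 were.

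**Figure D5:**
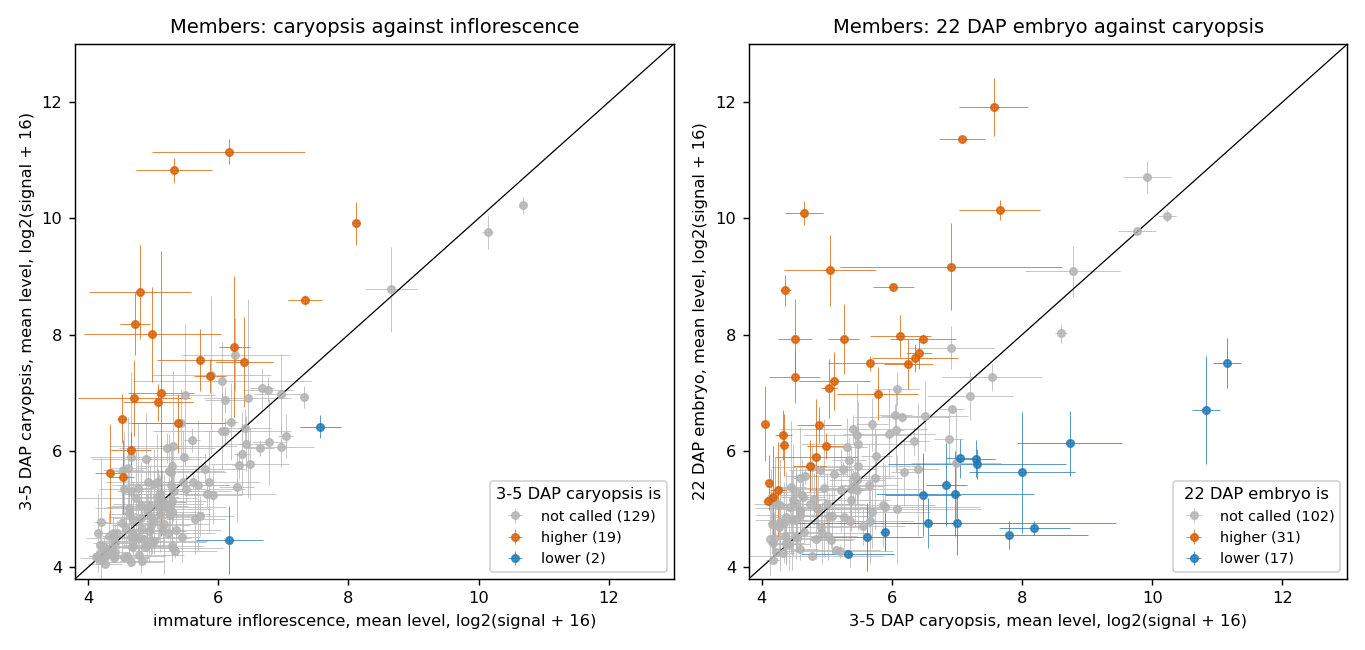
Mean level, log2(signal + 16), of the 150 members in the caryopsis against the inflorescence (left) and in the 22 DAP embryo against the caryopsis (right). Bars are the SD of 3 arrays, the line marks equal levels, and colour gives the limma call. Called higher were 19 and 31 members (12.7% and 20.7%), beside 5.63 and 10.3 percent of all retained probesets. Called lower were 2 and 17 (1.33% and 11.3%), beside 9.71 and 8.11 percent. Most members lie near background at the lower left.

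The 22 DAP embryo was then set against the sample labelled embryo of germinating seed, which corresponds to the mesocotyl of the study. Here 27 members (18.0%) were called higher at 22 DAP, beside 6.98 percent called over all retained probesets, and 4 (2.67%) lower, beside 8.30. Both median differences were positive, 0.24 over members and 0.03 over all retained probesets. Of the 27, 4 had both means at or under the reporters' percentile. Ta.6018.1.S1_at had 11.35, 11.33 and 11.41 in the 22 DAP embryo and 5.04, 5.89 and 6.49 in the germinating embryo, and differed by 5.55 ± 0.37 (adjusted p = 2.91e-13). Ta.1322.1.S1_at had 8.31, 9.58 and 9.63 against 4.41, 4.66 and 4.36, a difference of 4.69 ± 0.56 (adjusted p = 8.55e-08). Ta.5839.1.S1_at had 9.81, 8.83 and 8.68 against 4.21, 4.80 and 4.50, a difference of 4.60 ± 0.47 (adjusted p = 4.21e-09). In the germinating embryo the means of Ta.6018.1.S1_at, Ta.1322.1.S1_at and Ta.5839.1.S1_at lay under the reporters' 95th percentile, 6.20. The highest array of Ta.6018.1.S1_at was above it, at 6.49.

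The opposite direction was seen for 4 members. Ta.10165.1.S1_at had 8.41, 9.35 and 9.02 in the germinating embryo and 4.71, 6.42 and 6.23 in the 22 DAP embryo, a difference of -3.14 ± 0.48 (adjusted p = 6.39e-06). Ta.10853.1.S1_at had 6.71, 8.12 and 7.44 against 4.63, 4.28 and 4.74, a difference of -2.88 ± 0.55 (adjusted p = 1.49e-04). Ta.9164.1.S1_at and Ta.27575.1.S1_at differed by -1.66 and -1.01. These members had 10.88 to 14.15 in the endosperm and were not among those with the highest levels there.

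The sample labelled germinating embryo, the mesocotyl of the study, was finally set against the coleoptile, and it is shared with the comparison above. In the embryo 7 members (4.67%) were called higher, beside 4.20 percent called over all retained probesets, and 2 (1.33%) lower, beside 1.30. These shares are near the background and are not a result about the members. LOC542830 (Ta.231.1.S1_at) had 8.97, 9.52 and 8.39 in the embryo and 5.38, 5.67 and 6.92 in the coleoptile, a difference of 2.97 ± 0.44 (adjusted p = 1.42e-05). Ta.9227.1.S1_at had 7.69, 9.22 and 6.73 against 4.78, 4.86 and 5.26, a difference of 2.92 ± 0.40 (adjusted p = 3.12e-06). Ta.10165.1.S1_at had 7.33, 5.36 and 5.88 in the coleoptile and differed by 2.74 ± 0.48 (adjusted p = 1.70e-04), but without replicate 3 its adjusted p was 0.0711. Called lower were Ta.9918.1.S1_at, with 6.13, 6.48 and 6.04 against 8.13, 8.23 and 7.73, and Ta.1545.1.S1_at, with 4.57, 4.71 and 4.35 against 5.34, 6.01 and 6.16. For Ta.1545.1.S1_at alone both means were at or under the reporters' percentile of their tissue. It lost its call when any of the replicate numbers was left out, with an adjusted p of 0.0563, 0.0738 and 0.368.

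The gene-named probesets that the rule leaves out were examined for differences of the same size. Of 110, 16 had a difference above that of the last member. The search terms first set for these groups match gene names in words, which the reference tables mostly lack, so the probesets were grouped by symbols and synonyms with their values known, and no group was tested. Inhibitors of proteases and amylases were Serpin-Z2B, SER1 and Serpin-Z1C, which are serpins, with differences of 10.24, 9.71 and 9.60, the amylase and trypsin inhibitor ATI with 8.80 and 8.43 on its 2 probesets, the monomeric amylase inhibitor CIII with 7.82, and wci, a chymotrypsin inhibitor, with 7.31. Thionin genes were Pur-A1, TTHV and THI1.2, with 9.81, 9.74 and 8.45. Storage protein genes were ALP with 9.46 and 9.31 on 2 probesets, GAG56D with 8.85, gli-2 with 8.77 and avnla with 6.93. HGGT, an enzyme of tocotrienol synthesis, had 4.41. Other gene-named probesets lay below the limit. Among the storage protein genes the ALP probeset Ta.27777.1.S1_at had -0.76. Outside these groups AGP-S, which encodes a subunit of ADP-glucose pyrophosphorylase in starch synthesis, had 3.05.

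In the comparisons among other tissues these 16 are set beside the members with their own counts. They too were picked by their endosperm difference. In the 22 DAP embryo against the caryopsis 9 (56.2%) were called higher and 1 (6.25%), HGGT, lower, beside 10.3 and 8.11 percent of all retained probesets. GAG56D had 7.46 in the embryo and 4.36 in the caryopsis, a difference of 3.10, and the thionin gene THI1.2 had 7.96 and 4.85. In the 22 DAP embryo against the germinating embryo 10 (62.5%) were called higher and 0 lower in limma, beside 6.98 and 8.30 percent of all retained probesets. There 11 of the 16 had an unadjusted p under 0.05. In the caryopsis against the inflorescence 1 (6.25%) was called higher, HGGT, with 7.50 against 5.81, and 0 lower, beside 5.63 and 9.71 percent of all retained probesets. THI1.2 was the 1 (6.25%) called higher in the germinating embryo against the coleoptile, with 6.36 against 4.71, and 0 were lower, beside 4.20 and 1.30 percent. In both of these comparisons the share called higher is near that of all retained probesets and is not a result about the 16.

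Probesets that share a member's design cluster but were left out by suffix or gene name, called sisters here, are set beside the members. Of these, 89 came from another contig than any member, and whether sisters and members share probes was not examined. Sisters share design clusters and arrays with the members, and the contrast is that of the rule, so their counts are a description. A sister was counted as enriched where its endosperm mean exceeded that of every other tissue by 1 or more and even the weakest of these 12 contrasts in limma kept an adjusted p under 0.05. Of 124 sisters from 44 clusters, 73 (58.9%) were enriched, beside 2.46 percent called over all probesets so left out and 2.11 over the whole array, and 39 of the 44 clusters had at least 1 enriched sister. Cluster TaAffx.128418 holds 44 of the sisters, among them probesets of unrelated genes such as petC, and only 3 of these were enriched. Without it 70 of 80 sisters (87.5%) were.

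By the mark for which they were left out, 52 of 63 sisters with _x_at, 9 of 11 with _a_at, 3 of 12 with _s_at and 8 of 36 with .A1 were enriched. Cluster TaAffx.128418 holds 27 of the 36 with .A1, of which 0 were enriched, and 8 of the 12 with _s_at, of which 1 was. Outside it, 50 of 55 with _x_at, 9 of 11 with _a_at, 2 of 4 with _s_at and 8 of 9 with .A1 were enriched. The sister of the first member, Ta.6175.1.S1_x_at, had 16.18 in the endosperm and 5.57 in the next tissue. Of 35 sisters from the very contig of a member, 31 (88.6%) were enriched.

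Of these 35, 4 were not enriched. Ta.8559.2.S1_a_at had 12.47 in the endosperm but 13.47 in floral bracts, whereas the member Ta.8559.2.S1_at had 5.18, 4.38 and 5.86 in bracts. TaAffx.33748.3.S1_s_at had 6.57 in the endosperm and 8.94 in bracts. TaAffx.6776.1.S1_x_at and Ta.27575.1.A1_at were highest in the endosperm, by 1.21 and 1.36, with adjusted p-values of 0.312 and 0.0738.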

How the data were processed

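The deposited intensities, 1 per probeset and array, were made by the authors with MAS5 (version not given in the sources used here) on a linear scale, with a 2% trimmed mean near 500.2 on each array. The RMA values of the study were not used here, and 0 columns of other samples were present. The offset of 16 understates differences to levels near background. Tissue means were estimated with limma 3.58.1 (R 4.3.3) over all 39564 retained probesets, with Benjamini-Hochberg adjustment over all of them, and over all 61115 for sisters. The fit was checked on simulated data. Figures were made with Python 3.11.15 and matplotlib 3.10.9. The number of arrays limits the precision.

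Members, gene lists and tests were chosen with earlier results of these data known. Genes came from a reference table that pairs 1273 probesets with a gene, 1272 of them found in the RefSeq gene table. Named are the first 10 members, those at the limit, those with a gene, the 3 highest and 3 lowest in the endosperm, clusters with 2 members, the 3 largest calls per comparison and direction, and gene-named probesets above the last member. Same-numbered replicates did not deviate together, with correlations of -0.05 to 0.03, so no block was used. Bracts, pistil and seedling root (9 arrays) showed almost none of the polyadenylated control signal.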

Additional observations from a re-analysis of the deposited data

How the results depend on the processing

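Of the 150 members, 137 to 147 were also chosen under another offset, quantile normalization, scaling to the array median or to the hybridization controls, or without bracts, pistil and seedling root, 145 to 146 without 1 replicate number, and 126 under all alternatives, which include, chosen after seeing the data, reading a named gene by its symbol alone (136). The hybridization controls read 2.48 to 2.75 times the median array on the endosperm arrays. None of the 109 calls of members took the opposite direction under the 5 changes of scale or offset, the replicate block or the leaving out of a replicate number. The offset of 64 kept the fewest calls, 62. With that offset 12 members were higher and 0 lower in the caryopsis against the inflorescence (limma, 8 lower at an unadjusted p under 0.05), 17 higher and 9 lower in the 22 DAP embryo against the caryopsis, and 4 higher and 1 lower in the germinating embryo against the coleoptile. With the offset of 1, 4 were lower in the caryopsis and 1 in the germinating embryo. In the caryopsis 1 was lower under quantile normalization and 4 under scaling to the hybridization controls. In the germinating embryo 11 were higher among probesets above the median of the highest tissue mean, and in the 22 DAP embryo 11 were lower in a fit of only the tissues compared.

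Leaving out a replicate number moved the members called higher and lower to 12 to 19 and 1 to 2 in the caryopsis, 22 to 26 and 8 to 19 in the 22 DAP embryo against the caryopsis and 3 to 9 and 1 in the germinating embryo against the coleoptile. The replicate block, on numbers that do not pair the samples, changed none of the 109 calls, with 19 and 2, 31 and 17, 27 and 4, and 7 and 2 members higher and lower in the 4 comparisons, 91 varying among tissues and 74 sisters enriched. The median of all retained probesets between caryopsis and inflorescence moved from -0.17 to -0.00093 with scaling to the array median and to -0.26 with the hybridization controls. Between the 22 DAP embryo and the sample labelled germinating embryo it moved from 0.03 to -0.18 with the latter. Leaving out the sisters of cluster TaAffx.128418 (70 enriched) was also chosen after seeing the data. Levels near background limit what these arrays separate.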
